A study of Mus musculus with 8 samples.

Results

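9 genes for proteins that join the 2 sides of a synapse were followed in the P3 cortex of mice in which BAF155 and BAF170 were deleted from dorsal telencephalic progenitors: the neurexins Nrxn2 and Nrxn3, the neuroligins Nlgn1 and Nlgn3, the cerebellins Cbln1, Cbln2 and Cbln4, and the leucine-rich repeat transmembrane proteins Lrrtm1 and Lrrtm2. They were proposed with earlier results of these data known, were taken from the count files by symbol, and make up 9 of the 48709 gene identifiers listed there. All 9 passed the filter on low counts, as did 16525 genes in all. The smallest count of any of them in a sample was 95, for Cbln4.

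Neurexins sit on the presynaptic membrane and act as the hub of trans-synaptic adhesion. Neuroligins and LRRTM proteins bind them from the postsynaptic side, and cerebellins are secreted proteins of the C1q family that link neurexins to the postsynaptic glutamate receptor-like GluD proteins. These partners specify where excitatory and inhibitory contacts form and which receptors gather there. Each neurexin gene makes a long and a short protein from separate promoters and many splice forms, which counts per gene add together.

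RNA sequencing was performed on 4 dcKO and 4 control cortices at postnatal day 3, all on a C57BL/6J background. The dcKO mice carried floxed alleles on both copies of BAF155 and of BAF170 together with hGFAP-Cre, in which a human GFAP promoter drives the recombinase in radial glia of the dorsal telencephalon. By the study's methods the controls carried 1 floxed copy of each gene and Cre, while the sample titles call them wild type. Cells outside the Cre lineage kept both genes in the dcKO cortex, and the methods name the tissue as dorsal telencephalon.

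Total counts per sample lay between 21126713 and 32110285. The share of counts from genes of the mitochondrial genome was 2.06 to 3.23% in the controls and 3.57 to 5.47% in the dcKO samples. It was highest in dcKO replicate 2, and its part in the results was not tested. The RNA of the deleted genes was lower in every dcKO sample than in every control, at 0.511 times the control level for Smarcc1 (BAF155) and 0.587 times for Smarcc2 (BAF170). Cortical marker genes were expressed in all 8 samples. 2 dcKO samples stood apart by choroid plexus RNA, as the summed level of 5 choroid plexus markers reached 602.5 CPM (counts scaled to the TMM-normalized library size) in the first replicate and 1159 CPM in the second, while the other 6 samples had 2.66 to 19.1 CPM. In dcKO replicate 3 the astrocyte gene Gfap was at 273 CPM. It was at 24.2 to 32.2 CPM in the other dcKO samples and at 79.3 to 89.5 CPM in the controls. Xist RNA was abundant in control replicate 4 and dcKO replicate 3 alone.

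Within each of the 4 families, the members did not all receive the same call. Nrxn2, Nlgn1, Cbln1, Cbln4 and Lrrtm1 were lower in dcKO cortex, Cbln2 was higher, and Nrxn3, Nlgn3 and Lrrtm2 did not pass the threshold. Nlgn3 lay close to it and differed in the same direction as Nlgn1. The test was edgeR's quasi-likelihood F test over all 16525 genes with an adjusted p under 0.05. Thus 6 of 9 were called, 5 lower and 1 higher, where 37.5% of all genes tested were called, 18.9% lower and 18.6% higher. Since the 9 genes were chosen with earlier results known, these shares are set side by side as a description. In the same 6 genes the 4 dcKO samples did not overlap the 4 controls, as was the case for 34.4% of all genes tested (17.7% with dcKO lower and 16.7% with dcKO higher). The median log2 fold change (log2FC, dcKO against control) was -0.61 over the 9 genes and 0.02 over all genes tested. With libraries scaled by their totals alone, 2102 genes were lower and 4584 higher in place of 3128 and 3074, and the members still gave 5 and 1. All 6 calls were kept in each of 18 other settings, among them the fits without the choroid plexus-rich samples and without the samples with Xist RNA. In bulk tissue, fewer cells of a type and less RNA per cell cannot be told apart, and this holds for each result below.

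**Figure D1:**
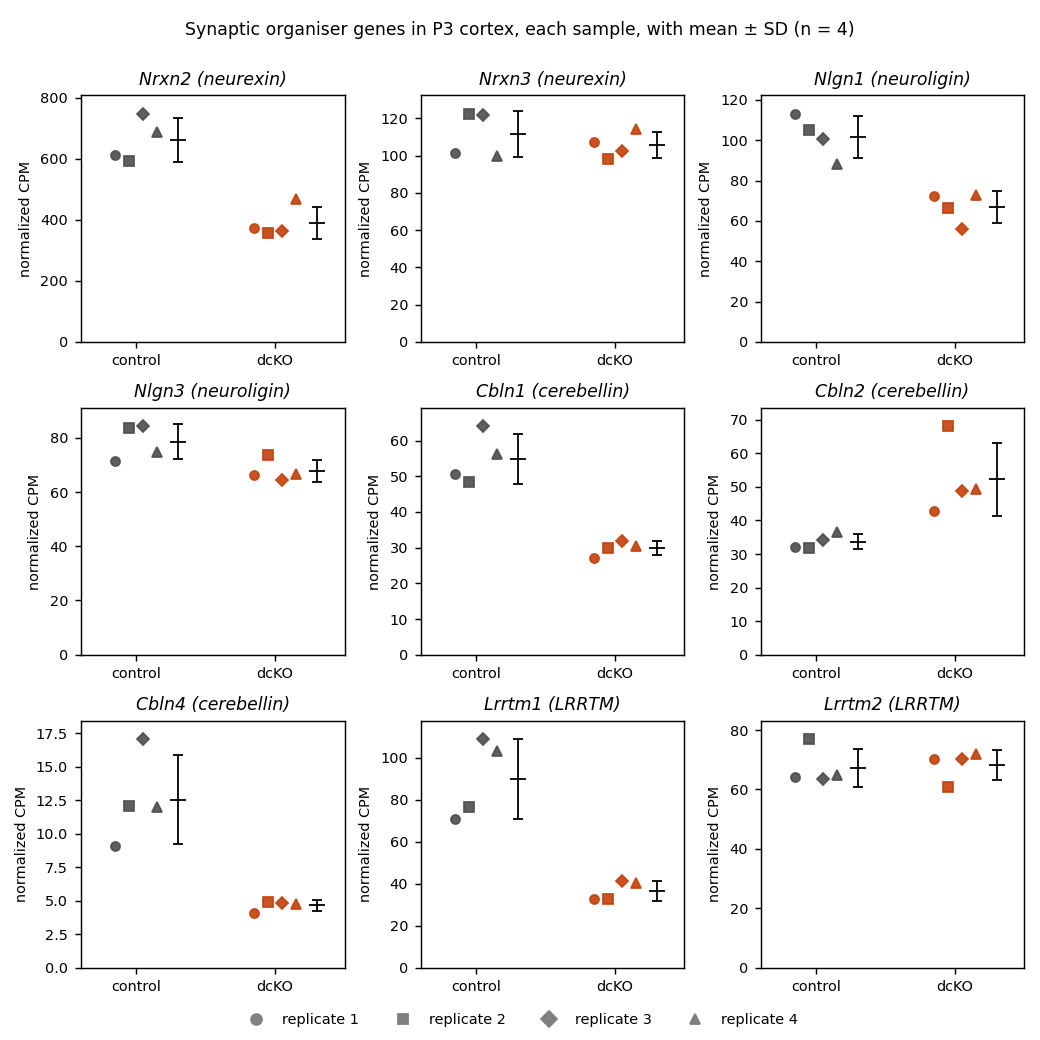
Normalized CPM (vertical axis, from 0) of the 9 genes in each of the 4 control and 4 dcKO samples, with symbols for replicates 1 to 4 and the mean ± SD (n = 4) beside each group. The groups are apart for Nrxn2, Nlgn1, Cbln1, Cbln2, Cbln4 and Lrrtm1, and they overlap for Nrxn3, Nlgn3 and Lrrtm2.

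**Figure D2:**
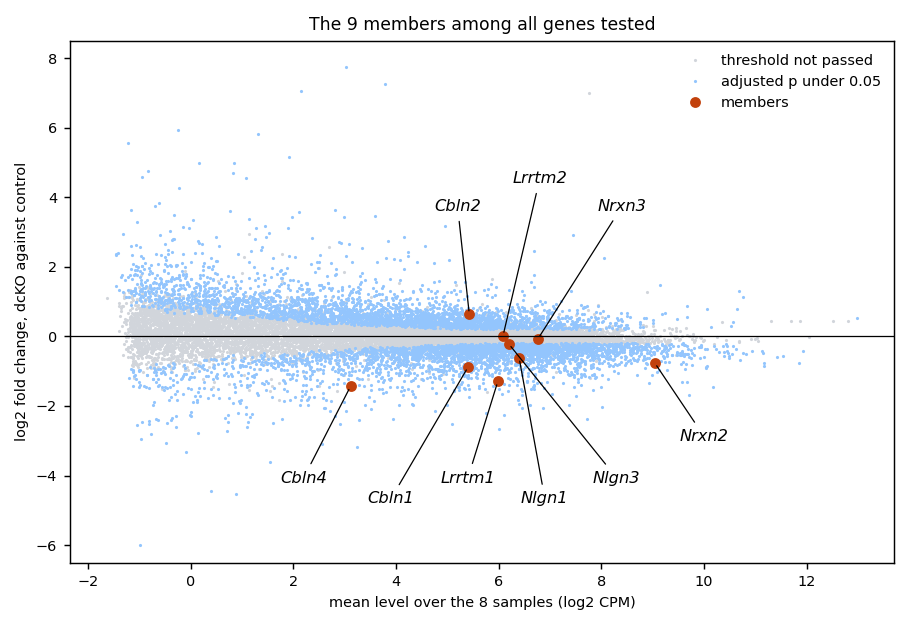
Log2 fold change of dcKO against control (vertical axis) by mean level in log2 CPM (horizontal axis) for the 16525 genes tested, with the 9 members as large points. Cbln4 and Lrrtm1 lie lowest among the members, at -1.43 and -1.29, and Cbln2 is the only member clearly above 0, at 0.63.

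Nrxn2 had the highest counts of the members and was lower in dcKO cortex. Its level was 613, 592, 749 and 689 CPM in control replicates 1 to 4 and 375, 357, 363 and 468 CPM in dcKO replicates 1 to 4. The highest dcKO sample, replicate 4, was still under the lowest control. The mean fell from 661 ± 71.9 to 391 ± 52.1 CPM (SD, n = 4 each), with a log2FC of -0.76 ± 0.10 (SE; edgeR adjusted p = 1.61e-04). Nrxn2 lies on chromosome 19 of mm10 from 6418731 to 6544169 (ENSMUSG00000033768).

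Nrxn3, the other neurexin, did not pass the threshold. It was at 102, 122.5, 121 and 99.97 CPM in the controls and at 107, 98.1, 102 and 114 CPM in the dcKO samples, so the groups overlapped. The log2FC of -0.08 had a 95% interval from -0.27 to 0.12 (edgeR adjusted p = 0.522). This interval does not reach the estimate for Nrxn2. Nrxn3 is one of the longest genes of the genome and spans 1612 kb of chromosome 12, from 88722876 to 90334935 (ENSMUSG00000066392).

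Cerebellins, the soluble bridge between neurexins and GluD receptors, moved in both directions. Cbln1, the founding member and a synapse organiser of cerebellar granule cells, was at 50.5, 48.3, 63.9 and 56.3 CPM in the controls and at 27.1, 29.999, 31.9 and 30.5 CPM in the dcKO samples. All 4 dcKO values lay close together and under the lowest control. For Cbln1 the log2FC was -0.87 ± 0.10 (SE; edgeR adjusted p = 5.5e-05). Cbln1 lies on chromosome 8 from 87468405 to 87472609 (ENSMUSG00000031654).

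Cbln2 was the only member called higher in the mutant. It was at 32.2, 31.6, 34.2 and 36.6 CPM in the controls and at 42.8, 68.0, 48.9 and 49.5 CPM in the dcKO samples, with replicate 2 the highest. The mean rose from 33.7 ± 2.26 to 52.3 ± 10.9 CPM (SD, n = 4 each), with log2FC 0.63 ± 0.13 (SE; edgeR adjusted p = 0.00235). Without dcKO replicate 2 the log2FC was 0.48, with an adjusted p of 0.00361. Cbln2 lies on chromosome 18 from 86711110 to 86718283 (ENSMUSG00000024647).

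Cbln4 had the lowest level and the largest fall of the 9 genes. It was at 9.07, 12.03, 17.0 and 11.98 CPM in the controls, which thus differed among themselves, and at 4.06, 4.92, 4.84 and 4.74 CPM in the dcKO samples. The highest dcKO sample, replicate 2, was well under the lowest control, replicate 1. The fall had a log2FC of -1.43 ± 0.18 (SE; edgeR adjusted p = 9.18e-05). Cbln4 is a short gene of chromosome 2, from 172036233 to 172043466 on the minus strand (ENSMUSG00000067578).

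The sequences before the starts of Cbln4 and Lrrtm1 are shown because these were the members with the largest falls and their genes differ in base composition there. RefSeq's promoter table (GRCm38.p6) held starts for 4 of the 9 genes, Cbln4, Nlgn1, Lrrtm1 and Nrxn3. Capitals mark the E-box CANNTG, the sequence that basic helix-loop-helix factors such as NeuroD proteins bind, searched on both strands (it is its own reverse complement). The 250 bases before the start of Cbln4 (chr2:172043467-172043716, minus strand) and of Lrrtm1 (chr6:77242227-77242476, plus strand) read 5′ to 3′:
Cbln4: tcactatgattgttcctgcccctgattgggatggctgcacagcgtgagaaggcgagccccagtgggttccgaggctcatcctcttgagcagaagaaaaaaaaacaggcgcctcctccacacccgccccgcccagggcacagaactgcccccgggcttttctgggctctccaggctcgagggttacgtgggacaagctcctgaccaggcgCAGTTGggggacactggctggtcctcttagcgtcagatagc
Lrrtm1: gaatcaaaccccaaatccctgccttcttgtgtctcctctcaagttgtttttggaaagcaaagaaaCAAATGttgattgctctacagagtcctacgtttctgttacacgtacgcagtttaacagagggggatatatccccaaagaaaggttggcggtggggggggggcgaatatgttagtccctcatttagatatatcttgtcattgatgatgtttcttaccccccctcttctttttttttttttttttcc
Each window held 1 E-box, beginning 41 bases before the start in Cbln4 and 185 bases before it in Lrrtm1. Of 32851 windows of this length in the table, 66.2% held at least 1. The windows of Nlgn1, which was called lower, held 0. Those of Nrxn3, which did not pass the threshold, held 0, 1 and 5, where 1.15% of all windows held at least 5. Binding was not tested. The Cbln4 window was 60.8% G or C with 11 CpG dinucleotides, and that of Lrrtm1 was poorer in G and C than the median of the table, with 5, where the medians were 52.4% and 6. The RefSeq start of Cbln4 is also that of GENCODE, whereas that of Lrrtm1 lies 212 bases before GENCODE's. Those of Nlgn1 lie 551 and 178474 bases from GENCODE's, and those of Nrxn3 71628, 230514 and 1089607 bases from it. The calls were made on counts of whole genes, which do not separate these starts.

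Among the neuroligins, Nlgn1, which is best known at excitatory synapses, was lower in dcKO cortex. Its level was 113, 105, 100.4 and 88.3 CPM in the controls and 72.2, 66.3, 55.8 and 72.7 CPM in the dcKO samples. All dcKO samples were below all controls, with replicate 3 the lowest. Its log2FC was -0.61 ± 0.10 (SE; edgeR adjusted p = 7.39e-04). Nlgn1 covers 906 kb of chromosome 3, from 25426215 to 26332460 (ENSMUSG00000063887).

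Nlgn3, an X-linked neuroligin of both excitatory and inhibitory synapses, lay close to the threshold without passing it. It was at 71.5, 83.7, 84.2 and 74.8 CPM in the controls and at 66.4, 73.7, 64.4 and 66.8 CPM in the dcKO samples. Only dcKO replicate 2 reached into the control range. The log2FC of -0.21 had a 95% interval from -0.39 to -0.03 and an adjusted p of 0.0618 (edgeR; exact two-sided permutation p = 0.0571). The adjusted p was 0.0409 without dcKO replicate 2, 0.0322 without control replicate 1 and 0.0373 in DESeq2, so the call rests on those choices. The 2 samples with Xist RNA, at 74.8 and 64.4 CPM, were within and at the edge of the range of their groups. Nlgn3 lies on chromosome X from 101299168 to 101325963 (ENSMUSG00000031302).

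Lrrtm1, a postsynaptic neurexin ligand of excitatory synapses, fell to 0.408 times its control level. It was at 70.6, 76.4, 109 and 103 CPM in the controls and at 32.4, 32.6, 41.2 and 40.2 CPM in the dcKO samples. In both groups replicates 3 and 4 were above replicates 1 and 2. This gave a log2FC of -1.29 ± 0.15 (SE; edgeR adjusted p = 6.06e-05). Lrrtm1 lies on chromosome 6 from 77242689 to 77257791 (ENSMUSG00000060780), inside the gene of alpha-catenin 2 (Ctnna2) on the other strand, with no shared exon bases.

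Lrrtm2, its closest counterpart here, binds neurexins in the same way and showed no difference that the test could call. It was at 64.2, 76.9, 63.4 and 64.9 CPM in the controls and at 70.2, 60.7, 70.2 and 72.0 CPM in the dcKO samples. The difference was a log2FC of 0.02, with a 95% interval from -0.17 to 0.22 (edgeR adjusted p = 0.876). Both the lowest and the highest of the 8 values came from a replicate 2, from the dcKO and the control group respectively. Lrrtm2 lies on chromosome 18 from 35209003 to 35215024 (ENSMUSG00000071862), inside Ctnna1 on the other strand.

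Lane 5 carried replicates 1 and 2 of both groups, lane 6 their replicates 3 and lane 7 their replicates 4. The difference of mean log2 CPM between dcKO and control had the same sign in all 3 lanes for 7 of the 9 genes, the exceptions being Nrxn3 and Lrrtm2. It ranged from -1.81 to -1.22 for Cbln4, from -1.40 to -1.17 for Lrrtm1, from -1.002 to -0.79 for Cbln1, from -1.04 to -0.56 for Nrxn2, from -0.85 to -0.28 for Nlgn1, from -0.39 to -0.15 for Nlgn3 and from 0.44 to 0.76 for Cbln2. Lanes 6 and 7 held 1 sample of each group, which allows no test within them.

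Members of a family were also compared by the ratio of their levels within each sample, which does not depend on how libraries are scaled. These 6 ratios were chosen after the values above had been seen. In all 6 the groups did not overlap, as was the case for 33.7% of the ratios over all pairs of 16483 tested genes with counts in every sample. They are given as a description, with no test. The 6 are not independent, since the 3 ratios of cerebellins share genes.

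Per kilobase of exon, Cbln1 exceeded Cbln2 in every control, by 1.497, 1.45, 1.78 and 1.47 times. In the dcKO samples the order was turned round, with ratios of 0.605, 0.420, 0.623 and 0.586. Of the summed level of the 3 cerebellins per length, Cbln2 made up 34.4 ± 2.61% in control and 60.8 ± 4.15% in dcKO cortex (SD, n = 4 each). The share of Cbln1 was 53.0 ± 1.37% and 33.7 ± 3.73%, and that of Cbln4 was 12.6 ± 2.17% and 5.46 ± 0.423%. The ratio of Cbln2 to Cbln4 differed most of all, by 4.04 times, from 2.02 to 3.56 in the controls and from 10.1 to 13.9 in the dcKO samples. Cbln4 also fell relative to Cbln1, as the ratio of Cbln1 to Cbln4 was 3.59 to 5.33 in the controls and 5.83 to 6.39 in the dcKO samples.

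The ratio of Lrrtm1 to Lrrtm2 per length was 2.18, 1.97, 3.40 and 3.16 in the controls and 0.918, 1.07, 1.17 and 1.11 in the dcKO samples. Per length, the excess of Lrrtm1 over Lrrtm2 in control cortex was thus near equality in the mutant. That equality depends on the annotated exon lengths, 3033 bases for Lrrtm1 and 6022 for Lrrtm2, while the shift between the groups does not. Nrxn2 exceeded Nrxn3 by 4.41 to 6.29 times in the controls and by 3.19 to 3.74 times in the dcKO samples. The smallest shift was that of the neuroligins, where the ratio of Nlgn1 to Nlgn3 was 0.815 to 1.09 in the controls and 0.598 to 0.752 in the dcKO samples.

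**Figure D3:**
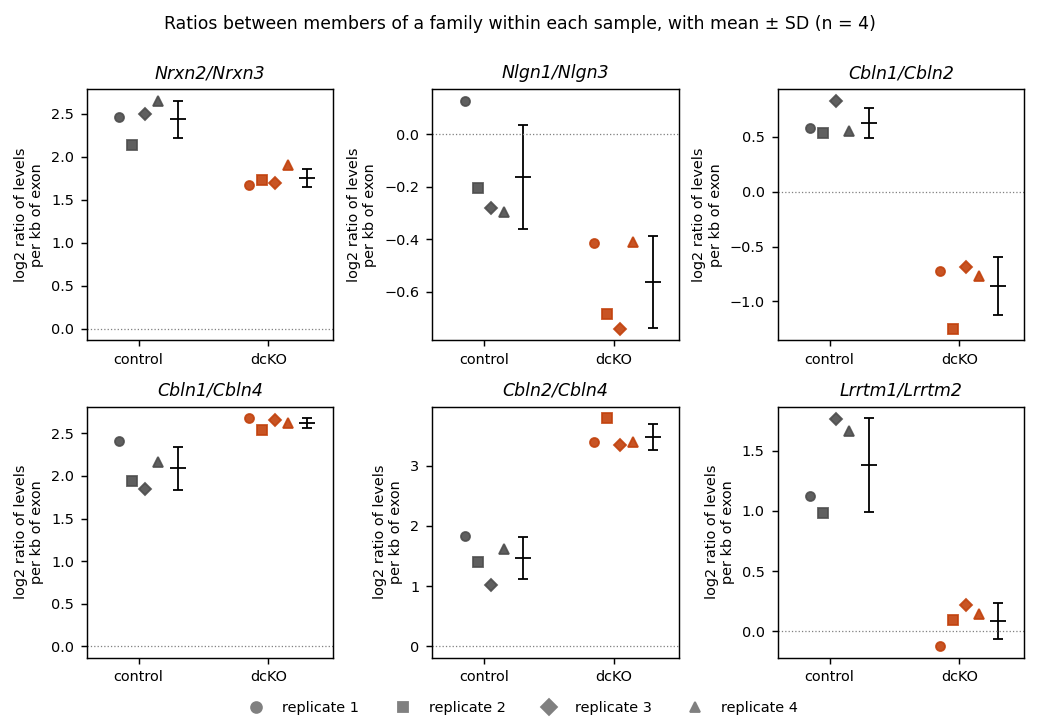
Log2 ratio of the levels per kilobase of exon (vertical axis) of 2 members of a family in each control and dcKO sample, with the mean ± SD (n = 4) beside each group and a dotted line at equal levels. All 6 pairs separate the groups, and the ratio of Cbln1 to Cbln2 lies above the line in every control and below it in every dcKO sample.

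Levels of different genes were compared as RPKM, the normalized CPM per kilobase of annotated exon. In control cortex Nrxn2 was highest at 47.8 ± 5.21 RPKM, followed by Lrrtm1 at 29.6 ± 6.28, Cbln1 at 18.0 ± 2.30, Cbln2 at 11.6 ± 0.782, Lrrtm2 at 11.2 ± 1.06, Nrxn3 at 8.84 ± 0.974, Nlgn3 at 8.47 ± 0.688, Nlgn1 at 7.58 ± 0.776 and Cbln4 at 4.32 ± 1.14 RPKM (SD, n = 4). The ranges of neighbours overlapped for Cbln2 and Lrrtm2, for Nrxn3 and Nlgn3, and for Nlgn3 and Nlgn1. In dcKO cortex Nrxn2 remained first at 28.3 ± 3.77 RPKM, Cbln2 was second at 18.1 ± 3.77, followed by Lrrtm1 at 12.1 ± 1.56 RPKM (SD, n = 4). From Lrrtm1 through Lrrtm2, Cbln1 and Nrxn3 to Nlgn3, each dcKO range overlapped the next, and Cbln4 was again last at 1.60 ± 0.135 RPKM.

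Other genes of the same families, which are not members, were examined with the same fit. Nlgn2, the neuroligin of inhibitory synapses, was lower in dcKO cortex, from 440.3 ± 12.8 to 351 ± 35.4 CPM (SD, n = 4 each), with a log2FC of -0.33 (edgeR adjusted p = 0.00665). Cbln3, Lrrtm3 and Lrrtm4 did not pass the threshold, with log2FCs of 0.07, -0.25 and -0.28. Cbln3, which works with Cbln1 in the cerebellum, was at 1.31 ± 0.212 CPM in control cortex.

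A wider list of 68 genes for synaptic adhesion partners and scaffolds held 67 that were tested. Of these, 40 were lower and 2 higher in dcKO cortex, where 18.9% and 18.6% of all genes tested were. Their median log2FC was -0.33, against 0.02 over all genes tested. Nlgn2 is among the 40. Without the choroid plexus-rich dcKO replicates 1 and 2, the number of lower genes was 26, in a fit of fewer samples.

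Among other partners of neurexins, neuroligins and cerebellins, 11 of the 15 tested were lower and 2 higher. Grid1, which encodes the cerebellin receptor GluD1, fell from 82.7 ± 5.87 to 52.2 ± 2.81 CPM (SD, n = 4 each), with log2FC -0.66 (edgeR adjusted p = 7.62e-05). Clstn2, a calsyntenin, fell from 130.4 ± 5.18 to 36.4 ± 5.43 CPM, with log2FC -1.84 (adjusted p = 4.1e-07), and Mdga1, which encodes a protein that blocks neuroligins from binding neurexins, had a log2FC of -1.48 (adjusted p = 2.63e-06). The 2 that were higher both encode neurexophilins, secreted ligands of alpha-neurexins. Nxph4 rose from 11.9 ± 0.802 to 33.2 ± 3.33 CPM, with log2FC 1.48 (adjusted p = 1.8e-06), and Nxph1 rose from 74.2 ± 6.74 to 112 ± 16.1 CPM, with log2FC 0.59 (adjusted p = 0.00123). Grid1 and Nxph1 were picked out after their values had been seen.

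In the LAR receptor phosphatase and netrin-G systems, which organise synapses beside the neurexins, 14 of 22 genes were lower and 0 were higher. The largest falls were those of Ntng2, Lrrc4 and Slitrk1, with log2FCs of -1.02, -0.85 and -0.80. Of 10 latrophilin, teneurin and FLRT genes, 6 were lower, led by Tenm3, Flrt1 and Adgrl3 at -0.99, -0.71 and -0.65. Of 12 scaffold genes, 6 were lower, with Shank2, Dlg2 and Apba1 at -0.84, -0.62 and -0.49. Khdrbs3, which encodes the splicing factor SLM2 that sets the use of an alternative exon in neurexins, was the only called gene of 3 such factors, with a log2FC of -0.63 (edgeR adjusted p = 5.4e-04). Splice forms themselves cannot be read from counts per gene.

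**Figure D4:**
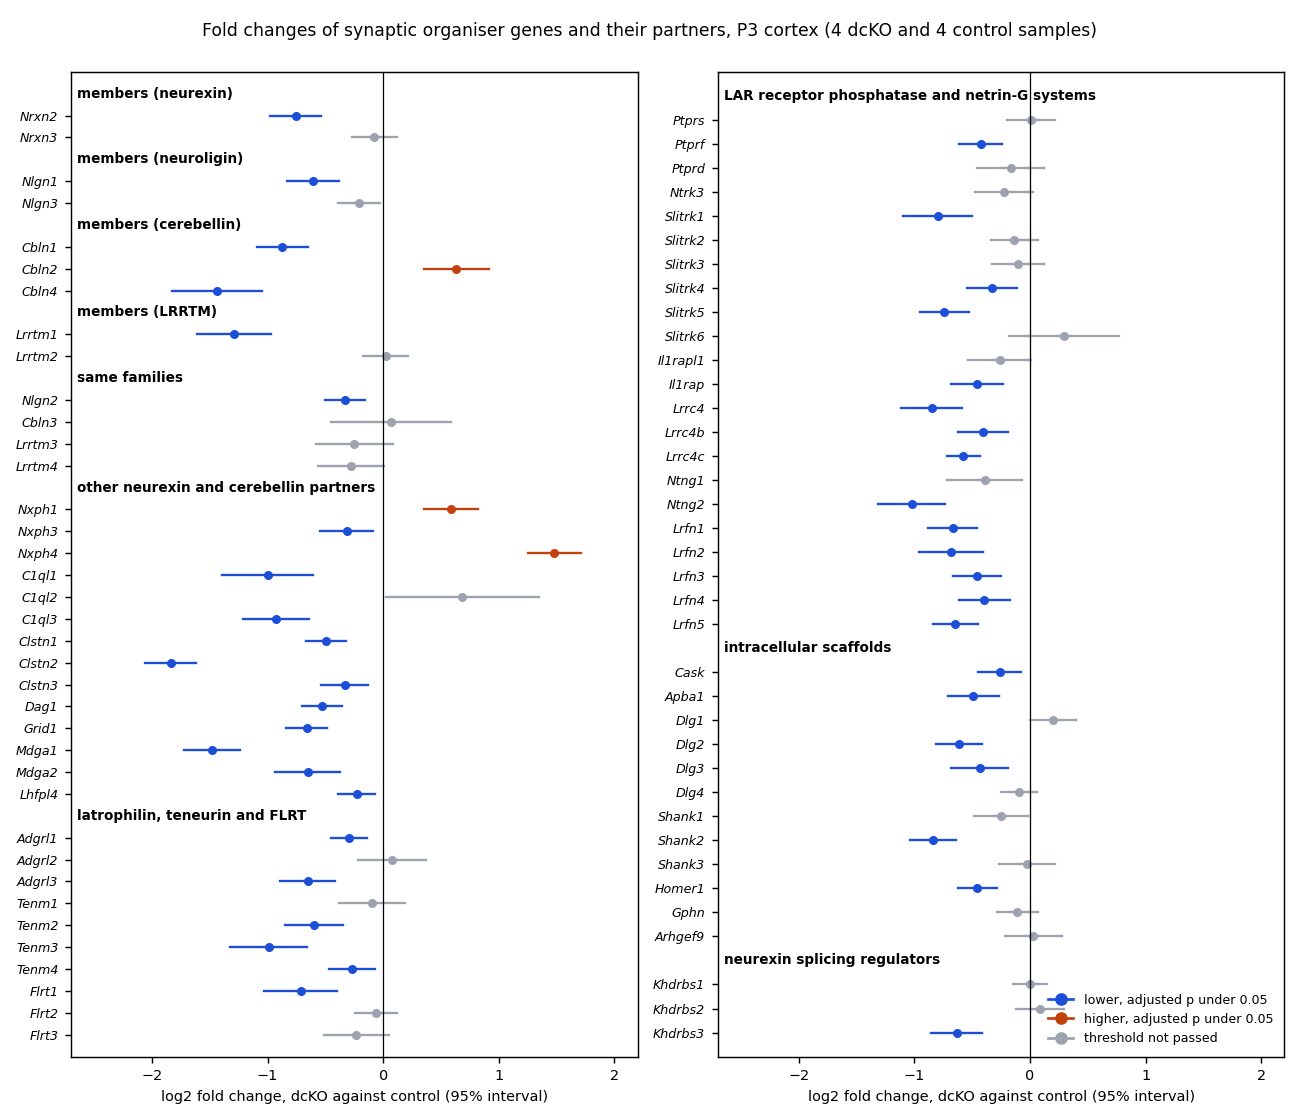
Log2 fold change of dcKO against control (horizontal axis) with its 95% interval for the 9 members and 65 tested genes of the wider list, grouped by family and system. Blue and orange mark genes lower and higher at an adjusted p under 0.05, and grey marks the rest: 39 genes of the wider list are blue, and only Nxph1 and Nxph4 are orange.

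Markers of several cell types that the tissue could hold also differed between the groups. Of 6 markers of cortical projection neurons, 5 were lower and 0 higher, and their summed level was 1403 to 1597 CPM in the controls and 646 to 809 CPM in the dcKO samples. Of 7 pan-neuronal markers 6 were lower, with sums of 9173 to 10056 CPM and 6774 to 7544 CPM. The median log2FC of the pan-neuronal markers was -0.41, against -0.33 over the wider list of synaptic genes. These falls accompany those of Nrxn2, Nlgn1, Cbln1, Cbln4, Lrrtm1 and 40 wider-list genes, and their part in the result was not tested. Neurod6, at a log2FC of -2.04, fell further than any member, while Tbr1 and Map2, at 0.07 and -0.07, did not pass the threshold.

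Of 6 markers of GABAergic interneurons, 5 were higher and 0 lower, with sums of 441 to 479 CPM in control and 715 to 761 CPM in dcKO samples. Of 4 thalamic markers 3 were higher, with sums of 51.9 to 63.6 CPM and 67.8 to 103 CPM. Most of each sum was Slc17a6, the marker that did not pass the threshold. It was at 47.4 to 56.4 CPM in control and 50.3 to 78.3 CPM in dcKO samples. The highest dcKO sample in the thalamic sum was replicate 2, which was also the highest in Cbln2. In the 3 called thalamic markers the groups did not overlap. Lhx9 was at 0.972 to 2.76 CPM in control and 10.1 to 17.1 CPM in dcKO samples (log2FC 2.696, edgeR adjusted p = 4.02e-05). Gbx2 was at 0 counts in 2 controls and at 1.09 to 1.95 CPM in the dcKO samples (log2FC 5.92, adjusted p = 6.09e-06). Tcf7l2 had a log2FC of 0.598 (adjusted p = 0.00678). Among the dcKO samples, Lhx9 and Gbx2 were highest in replicate 2, while Tcf7l2 was lowest there. The rises of interneuron and thalamic markers accompany that of Cbln2, and their part in it was not tested. Sst rose by 1.02 on the log2 scale, and Cbln4 fell. Sst interneurons are known to express Cbln4, and their part in its level here was not tested. Of 7 striatal markers 4 were higher, with sums of 117 to 165 CPM and 350 to 655 CPM, but only Ppp1r1b had groups that did not overlap, at 40.8 ± 6.17 and 308 ± 39.9 CPM (SD, n = 4 each). Without Ppp1r1b the sums were 77.2 to 116 CPM in the controls and 258, 73.98, 314 and 156 CPM in dcKO replicates 1 to 4, so the groups overlapped.

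The 4 midbrain and cerebellar markers were at 0.898 CPM or less in sum in every sample, and none passed the filter on low counts. Of the choroid plexus markers 1 of 4 tested was higher, and of 5 microglial markers 3 were higher. Of 5 oligodendrocyte precursor markers 5 were lower, and of 4 endothelial markers 2 were lower. Of 5 astrocyte and radial glia markers 0 passed the threshold, but dcKO replicate 3 was unlike the other dcKO samples. In dcKO replicates 1, 2 and 4, Gfap was at 24.2 to 32.2, Aqp4 at 9.49 to 9.92 and Aldh1l1 at 34.1 to 42.3 CPM. The controls were at 79.3 to 89.5, 38.8 to 63.7 and 81.3 to 96.4 CPM, and dcKO replicate 3 at 273, 53.0 and 97.3 CPM. Slc1a3 was also under every control in dcKO replicates 1, 2 and 4, while Fabp7 was not. Summed levels in control and dcKO samples were 57.7 to 83.4 and 98.1 to 115 CPM for microglia, 367 to 400.2 and 220.3 to 295 CPM for oligodendrocyte precursors, 126 to 167 and 68.3 to 130.01 CPM for endothelium, and 1444 to 1477 and 1018 to 2317 CPM for astrocytes and radial glia.

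**Figure D5:**
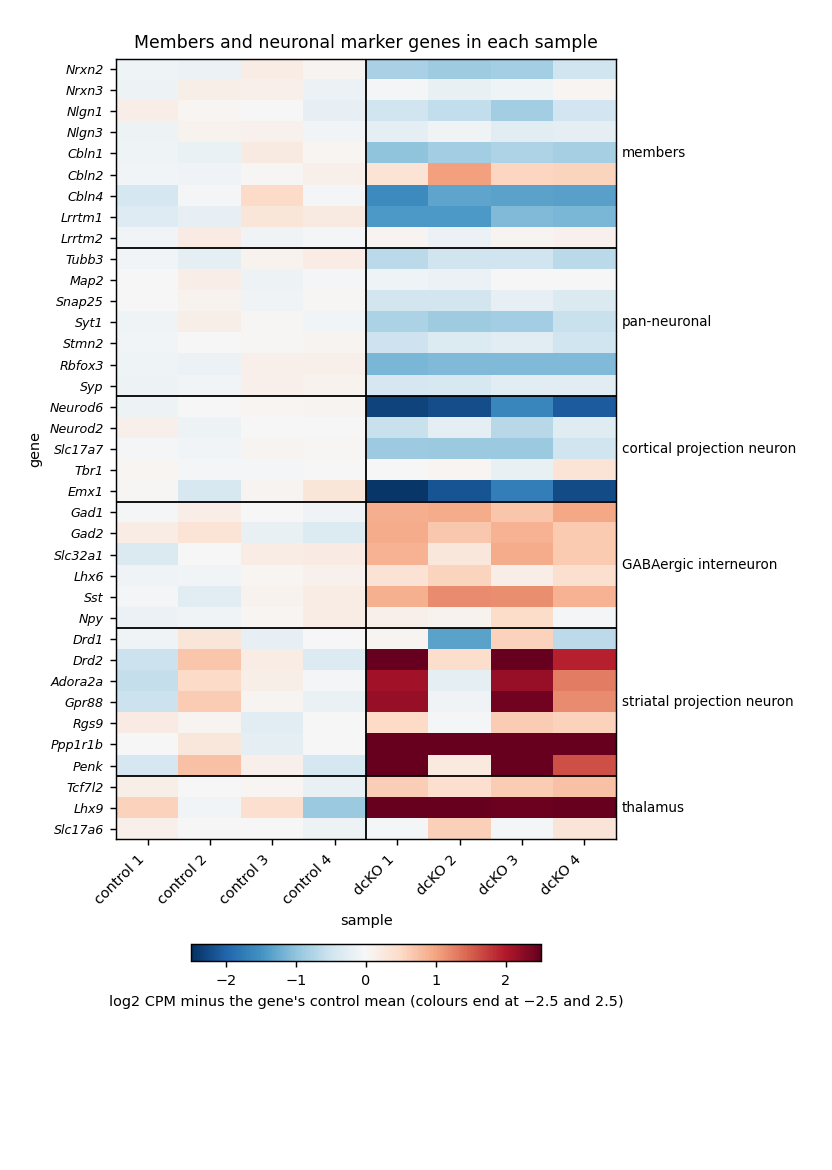
Log2 CPM minus the gene's control mean (colour, blue lower and red higher) in each of the 8 samples for the 9 members and for markers of 5 neuronal classes, without 1 marker not reported here and without Gbx2, which was at 0 counts in 2 controls. 5 members are blue across the dcKO samples like most cortical projection neuron markers, and Cbln2 is red like most interneuron markers, with its deepest red in dcKO replicate 2.

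For each member, the 2 genes with the most similar levels over the 8 samples were found among 11337 genes of at least 5 CPM. Likeness was the root-mean-square difference of log2 CPM after each gene was set to its own control mean. The same 2 genes, Rhou and Ndrg1, were nearest to both Cbln4 (differences of 0.16 and 0.17) and Lrrtm1 (0.12 and 0.09). Nearest to Nrxn2 were Ephb2 and Hs6st1 (0.06 each), to Nlgn1 Tnik and Runx1t1 (0.07 and 0.08), to Cbln1 Per2 and Crmp1 (0.07 each), and to Cbln2 Tal1 and Cd83 (0.09 and 0.10). Nrxn3 was nearest to Wdr35 and to the FLRT gene Flrt2 (0.06 each), Nlgn3 to Ncapg2 and Kat14 (0.04 and 0.05), and Lrrtm2 to Tmed5 and Cacul1 (0.05 each). Genes with so small a difference mostly share the size of the group difference.

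Several members share exon bases with other annotated genes, and the strand setting of the counting is not given in the sources used here. The largest overlap was that of Nlgn3, of whose exon length 41.2% is shared with the transcript Gm21986 on the same strand, so the reads there may have been given to either gene or to none. Gm21986 had between 14 and 39 counts per sample, 0.824 to 1.76% of those of Nlgn3. The level of Nlgn3 per length and its ratio to Nlgn1 depend on how the shared reads were counted, which is not known. The antisense transcript A830092H15Rik shares 9.16% of the exon length of Nlgn1 and had at most 1.24% of its counts. Ctnna1 shares 1.58% of the exon length of Lrrtm2 and had 1131 to 1991 counts, with a log2FC of 0.21 (edgeR adjusted p = 0.0668).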

How the data were processed

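Libraries of cortical RNA from 8 samples, 4 per genotype, were made with the TruSeq RNA v2 kit. Raw counts per gene were deposited by the authors for each sample, without normalization, after alignment to mm10 and counting with featureCounts. Sources used here do not give the aligner, annotation release, strand setting or treatment of multi-mapping reads.

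Of 48709 gene identifiers, 48349 were matched to symbols, coordinates and exon lengths of GENCODE M21 on the same build. Groups were taken from the genotype labels. No replicates agreed within the sampling noise of their counts. The methods count 4 control and 4 mutant tissues and do not say whether each came from a separate mouse, so p-values measure the spread between these samples. Counts were scaled by TMM, filtered by edgeR (version 4.0.16, R version 4.3.3) with a minimum count of 10 and tested by its quasi-likelihood F test with robust dispersions, no block and Benjamini-Hochberg adjustment over 16525 genes (threshold 0.05). Standard errors (log2FC over the root of F) gave 95% intervals. Nlgn3 was also tested by two-sided exact permutation over 70 arrangements. Counts with known changes were simulated for edgeR with and without a replicate block, limma-voom and DESeq2. Each recovered most of the changed genes, with a share of false calls above the nominal threshold. Far fewer genes were changed there than were called here, so these shares may not hold for the real counts. The permutation test was not simulated.

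The members, the wider list of synaptic genes and the 11 marker lists were chosen with earlier results of these data known. Named were all members, their family genes, the 3 called genes with the largest fold change in each of the 6 sublists, the deleted genes, and the 2 most similar genes of each member (at least 5 CPM, no Gm or Rik names). Markers named singly were picked out after their values had been seen, as were the 6 ratios. Some genes of the lists enter the counts but are not reported here by name or in the plots. In 16 other settings the data were refitted with DESeq2 (version 1.42.0), limma-voom (limma version 3.58.1), other scalings and filters, a replicate or lane block, and each sample left out in turn. The 2 fits without choroid plexus-rich samples and without samples with Xist RNA were added after seeing the data. Replicate numbers were not taken as pairs, since the deviations of same-numbered samples correlated at 0.17, -0.07, 0.21 and -0.02 over genes. In the shallowest sample 3 counts correspond to 0.142 CPM, and intervals cover the spread between samples as fitted.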

Additional observations from a re-analysis of the deposited data

Results flagged for a closer look

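In 6 of 52 groups of 4 values, 1 sample lay apart from the other 3 beyond the 95% critical value of Dixon's test, which by chance happens in about 2.6. Each gap below is the distance to the next sample over the whole range of the group.

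Nrxn2 was highest among the mutants in dcKO replicate 4, at 468.1 CPM against 357 to 375 CPM in the other 3 (gap 0.842). Lrrtm2 was highest among the controls in replicate 2, at 76.9 CPM against 63.4 to 64.9 CPM (gap 0.889), and lowest among the mutants in replicate 2, at 60.72 CPM against 70.2 to 72.0 CPM (gap 0.838). The ratio of Cbln1 to Cbln2 was highest among the controls in replicate 3, at 1.78 against 1.45 to 1.497 (gap 0.866). The ratio of Cbln2 to Cbln4 was highest among the mutants in replicate 2, at 13.87 against 10.1 to 10.6 (gap 0.882), the sample that was also highest in Cbln2 and in the summed choroid plexus and thalamic markers. The summed level of the 7 striatal markers was highest among the controls in replicate 2, at 165.1 CPM against 117 to 122 CPM (gap 0.891).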

How the results depend on the processing

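The calls of Nrxn2, Nlgn1, Cbln1, Cbln2, Cbln4 and Lrrtm1 kept their direction and an adjusted p under 0.05 in all 18 settings, with log2 fold changes from -0.84 to -0.64, -0.68 to -0.49, -0.93 to -0.75, 0.48 to 0.75, -1.56 to -1.25 and -1.40 to -1.14. Scaling by library totals shifted all genes upward by a median of 0.12 (log2), turned the log2 fold change of Nrxn3 to 0.0436, gave 2102 lower and 4584 higher genes in place of 3128 and 3074, and 4 higher genes of the wider list in place of 2. The log2 fold change of Lrrtm2 was between -0.00998 and 0.0854 over the fits that each left out 1 sample, below 0 without control replicate 1, 3 or 4 (-0.0072, -0.00998 and -0.0051), and -0.0155 without the samples with Xist RNA. Without dcKO replicates 1 and 2, the fit of 6 samples gave 1581 lower and 1388 higher genes over all and 26 lower genes of the wider list. Over the fits that each left out 1 sample, the members gave 5 to 6 lower and 1 higher, the wider list 36 to 41 lower and 2 to 3 higher, and all genes 2375 to 3273 lower and 2199 to 3308 higher. A replicate block gave 2982 lower and 2932 higher genes, 5 members were lower and 1 higher, and no call of a member changed. With the lane as a block, all genes gave 3242 lower and 3208 higher. DESeq2 gave 6 lower members, with Nlgn3 the added one. Leaving out 1 sample moved the difference in log2 ratio to between -1.54 and -1.35 for Cbln1 to Cbln2, 1.86 and 2.14 for Cbln2 to Cbln4, 0.45 and 0.64 for Cbln1 to Cbln4, -1.43 and -1.17 for Lrrtm1 to Lrrtm2, -0.79 and -0.61 for Nrxn2 to Nrxn3, and -0.45 and -0.30 for Nlgn1 to Nlgn3. Where a value moved, the cause was not tested. Counts of 4 samples a group limit what can be said of Nrxn3, Nlgn3 and Lrrtm2.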
